A study of Arabidopsis thaliana with 18 samples.

Results

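The LHCB4 genes encode CP29, a minor antenna protein of photosystem II, and 3 paralogs of Arabidopsis thaliana were followed here, LHCB4.1, LHCB4.2 and LHCB4.3. Members were the probe sets that the array annotation gives to exactly 1 of these genes. This found 3 probe sets, 1 for each gene, among the 22746 probe sets of the array that are not controls, and all 3 passed the filter on low signals that left 15922 probe sets for testing. LHCB4.1 (AT5G01530, probe set 251082_at) lies on chromosome 5 from 208866 to 210548, LHCB4.2 (AT3G08940, 258993_at) on chromosome 3 from 2717557 to 2718923, and LHCB4.3 (AT2G40100, 265722_at) on chromosome 2 from 16745628 to 16747424, in RefSeq's TAIR10.1 annotation. The reference lists 1 transcript for LHCB4.1 and 2 each for LHCB4.2 and LHCB4.3. The probe sequences were not used here, so which transcripts a probe set reads, and how far LHCB4.1 and LHCB4.2 share signal, was not tested.

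CP29 sits as a single protein between the photosystem II core and the trimers of the major antenna, and passes the energy that chlorophyll a, chlorophyll b and xanthophylls absorb to the core. Its genes are nuclear, so the transcripts are translated on cytosolic ribosomes and the protein is imported into the plastid. A dark-grown seedling has etioplasts, which make very little chlorophyll, and light turns these into chloroplasts with an assembled antenna. LHCB4.1 and LHCB4.2 are known as the common forms in leaves, while LHCB4.3 encodes a variant with a shorter C-terminal end that is known from plants in strong light.

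The study measured transcripts in the above-ground parts of etiolated Col-0 seedlings 4 days old, kept in the dark or given white light for 0.5 h or 4 h at 70 to 80 micromoles of photons per square metre per second. From each condition the polysome-bound RNA, recovered from a sucrose gradient and thus loaded with ribosomes, and the steady-state (total) RNA were put on separate arrays. The 6 groups are polysome and steady-state RNA in the dark, at 0.5 h and at 4 h, with 3 arrays each, 18 in all. All groups share the same wild-type background, with no mutant or chemical treatment, and the labels call the replicates biological without saying how the cultures were separated.

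Values are MAS5 signals on a linear scale, with all arrays brought to a common mean and array medians from 153.9 to 205.7. How precise they are is set by the few arrays per group. A shift of all polysome RNA against all steady-state RNA would not be visible, so a ratio of polysome to steady-state signal is relative to the other transcripts of the array. In these bulk samples fewer cells of a type and less RNA per cell cannot be told apart. Of 6 green-tissue marker genes listed, 2 had a probe set of their own (RCA and SBPASE), and both rose at 4 h. Their log2 changes were 1.75 and 1.70 in polysome RNA and 1.85 and 1.98 in steady-state RNA. Over all probe sets 15.6% were called higher at 4 h in polysome RNA and 16.9% in steady-state RNA. The part of these 2 markers in the LHCB4 results was not tested. The 2 of 5 listed root markers with a probe set, EXPA7 and EXPA18, had signals of 3.1 to 95.9 and were below the filter. Arrays with equal replicate numbers deviated together (correlations of 0.108 to 0.426). The fit behind the calls does not use these numbers. Values from a second fit, blocked on replicate number, are therefore given where they changed a call of an LHCB4 gene. The block also changed calls of other listed genes, and only some of those are given.

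Errors of signals are SD (n = 3 arrays per group), and errors of log2 changes are standard errors (SE) of a limma fit over all 18 arrays. An adjusted p is limma's, corrected by Benjamini-Hochberg over all 15922 probe sets, and a gene is called higher or lower where it is under 0.05.

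In darkness LHCB4.1 and LHCB4.2 already gave strong signals and LHCB4.3 a moderate one. On dark steady-state arrays LHCB4.1 had signals of 9070.4, 12206 and 12220 in replicates 1 to 3. LHCB4.2 had 12980.2, 10604 and 10155 on the same arrays. LHCB4.3 had 295, 257 and 202. The first replicate was the lowest array for LHCB4.1 and the highest for the other paralogs. Within an array, LHCB4.1 and LHCB4.2 stood between the 99.0 and 99.5 percentiles of the probe sets in dark steady-state RNA, and LHCB4.3 between the 51.9 and 61.0 percentiles. Levels of different probe sets cannot be set against each other, because each binds its target differently.

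**Figure D1:**
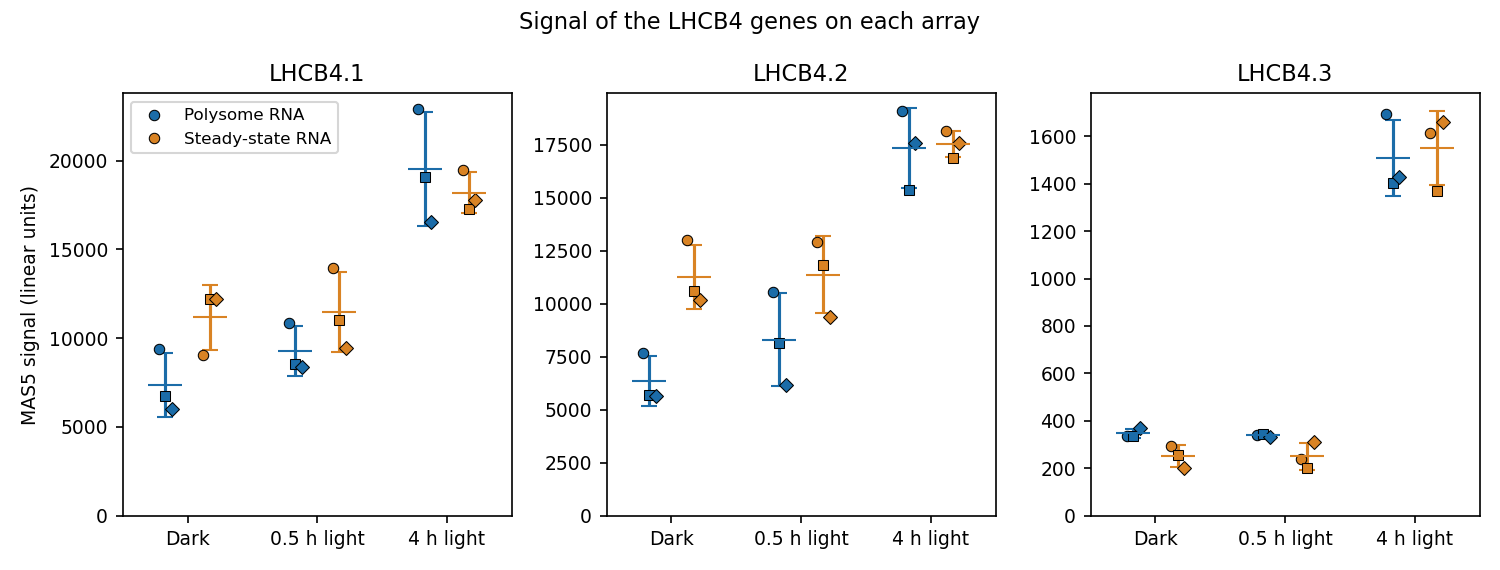
MAS5 signal (linear units, axes from 0, a scale of its own for each gene) on every array, by light condition, with polysome RNA in blue at the left and steady-state RNA in orange at the right of each pair. Circles, squares and diamonds are replicates 1, 2 and 3, and bars give the mean ± SD (n = 3); at 4 h every array of each gene lies above all dark and 0.5 h arrays.

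Light of 0.5 h had no called effect on any of the 3 genes, in either kind of RNA. In polysome RNA LHCB4.1 had signals of 10875, 8549.5 and 8390 at 0.5 h, against 9378, 6723 and 5993 in the dark. LHCB4.2 had 10571, 8155 and 6166 at 0.5 h, against 7691, 5707 and 5660.2 in the dark. The ranges of light and dark overlapped for both genes, although each of the 3 light arrays was above the dark array of equal number. The log2 changes were 0.35 ± 0.188 for LHCB4.1 (95% interval -0.05 to 0.74, adjusted p = 1.00) and 0.37 ± 0.184 for LHCB4.2 (-0.02 to 0.75, adjusted p = 0.958).

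LHCB4.3 had polysome signals of 338.5, 344 and 333 at 0.5 h, against 337, 335 and 370.5 in the dark. These 6 values lay close together, with a log2 change of -0.04 ± 0.181 (interval -0.41 to 0.34). In steady-state RNA the changes at 0.5 h were 0.03 ± 0.188 for LHCB4.1, 0.01 ± 0.184 for LHCB4.2 and -0.01 ± 0.181 for LHCB4.3, with intervals reaching from -0.39 to 0.43 over the 3 genes. Signals there averaged 11467 ± 2268 at 0.5 h and 11165 ± 1814 in the dark for LHCB4.1, and 11371 ± 1808 and 11247 ± 1518 for LHCB4.2. For LHCB4.3 the averages were 250 ± 56.0 at 0.5 h and 251 ± 46.6 in the dark. A true change within those intervals remains possible. The intervals are not adjusted over all probe sets, so a change somewhat beyond them could also have gone uncalled. Across all probe sets 1.31% were called at 0.5 h in polysome RNA and 1.43% in steady-state RNA (2.24% and 2.57% with the replicate block), so 0 of 3 is near the background, and 0 of 3 had an unadjusted p under 0.05 in either (lowest 0.0609, limma).

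After 4 h of light all 3 genes were higher than in the dark in polysome RNA. LHCB4.1 had signals of 22914, 19089 and 16548 at 4 h, and its dark polysome signals are those given above. It rose 2.68-fold (95% interval 2.04 to 3.52), a log2 change of 1.42 ± 0.188 (adjusted p = 5.83e-06). LHCB4.2 had 19068, 15358 and 17592 at 4 h and rose 2.75-fold (2.105 to 3.59), a log2 change of 1.46 ± 0.184 (adjusted p = 3.12e-06).

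LHCB4.3 had polysome signals of 1692, 1402 and 1429 at 4 h, against 337, 335 and 370.5 in the dark. Its rise was 4.33-fold (3.33 to 5.63), a log2 change of 2.11 ± 0.181 (adjusted p = 1.75e-08). For each gene the lowest 4 h array was above the highest dark array. Over all probe sets 15.6% were called higher in this comparison, and 20.9% had groups that did not overlap with 4 h the higher.

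In steady-state RNA all 3 genes rose as well, LHCB4.3 by the largest factor. LHCB4.3 had 1615, 1371 and 1661 at 4 h, against 295, 257 and 202 in the dark, and rose 6.22-fold (4.79 to 8.09; log2 change 2.64 ± 0.181, adjusted p = 7.96e-10). LHCB4.1 had 19497, 17274 and 17804 at 4 h, and rose 1.64-fold over its dark signals (1.25 to 2.16; log2 change 0.72 ± 0.188, adjusted p = 0.00540). LHCB4.2 had 18141, 16887 and 17574, a rise of 1.57-fold (1.201 to 2.05; log2 change 0.65 ± 0.184, adjusted p = 0.00909). Again the 4 h and dark arrays did not overlap for any of the 3 genes, beside 16.9% of all probe sets called higher and 21.8% that lay apart in this direction.

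The steady-state calls of LHCB4.1 and LHCB4.2 ended under 1 of the scalings tried. Bringing all arrays to a common median took 0.11 off each log2 change in this comparison, and left LHCB4.1 at 0.61 (adjusted p = 0.0520) and LHCB4.2 at 0.54 (adjusted p = 0.0884). Quantile normalization kept both calls, at 0.67 (adjusted p = 0.00644) and 0.57 (adjusted p = 0.0218). Ranked by log2 change among the 15922 probe sets, LHCB4.3 stood at place 265, LHCB4.1 at 2918 and LHCB4.2 at 3223. In polysome RNA the places were 443, 1022 and 967.

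**Figure D2:**
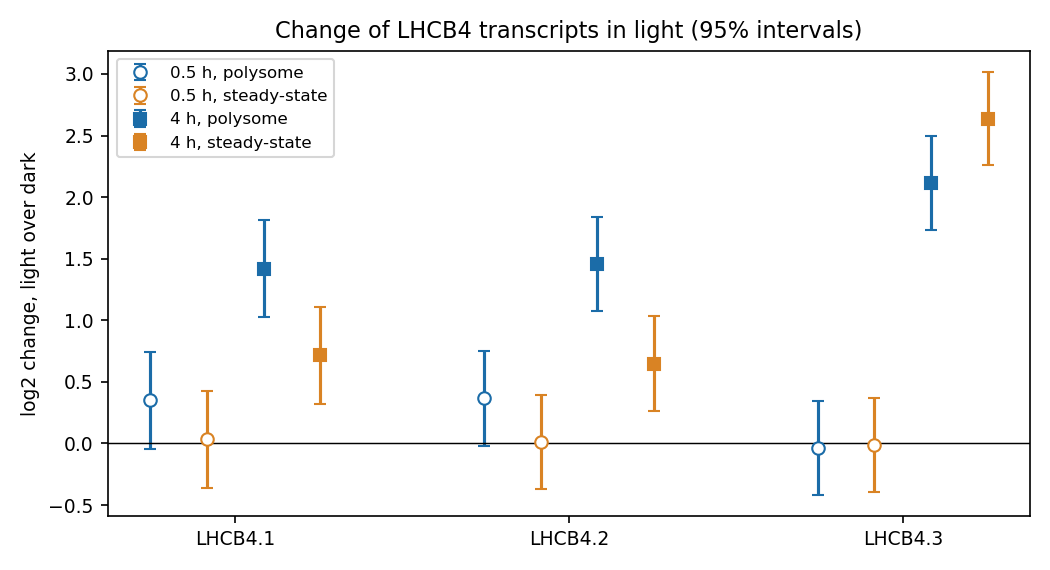
Log2 change of light over dark for each gene (vertical axis), with 95% intervals from the limma fit over 18 arrays; open circles are 0.5 h and filled squares 4 h, blue polysome RNA and orange steady-state RNA. The 0.5 h intervals all take in 0, LHCB4.1 and LHCB4.2 changed at 4 h by 1.42 and 1.46 in polysome RNA and by 0.72 and 0.65 in steady-state RNA, and LHCB4.3 by 2.11 and 2.64.

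All 3 genes were higher at 4 h than at 0.5 h. How much LHCB4.1 and LHCB4.2 had already risen in polysome RNA by 0.5 h is bounded only by the intervals above. In polysome RNA the step from 0.5 h to 4 h was 1.07 ± 0.188 on the log2 scale for LHCB4.1 (adjusted p = 0.000175), 1.09 ± 0.184 for LHCB4.2 (adjusted p = 0.000111) and 2.15 ± 0.181 for LHCB4.3 (adjusted p = 1.98e-08). In steady-state RNA it was 0.68 ± 0.188 (adjusted p = 0.00799), 0.64 ± 0.184 (adjusted p = 0.0107) and 2.65 ± 0.181 (adjusted p = 1.04e-09) in the same order of genes. All 3 genes passed in both kinds of RNA, where 14.6% of probe sets were called higher in polysome and 16.4% in steady-state RNA. The 4 h arrays of all 3 lay above the 0.5 h arrays, as 20% of probe sets did in polysome and 20.7% in steady-state RNA. The steady-state calls of LHCB4.1 and LHCB4.2 ended with the common median (adjusted p = 0.0591 and 0.0855) and stood with quantile normalization (0.0177 and 0.0388). That of LHCB4.2 also ended without replicate 3 of the 0.5 h steady-state group (adjusted p = 0.0635).

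Ordered by mean log2 signal, the 6 groups split in the same place for every gene, with both 4 h groups on top. For LHCB4.1 the order below these was 0.5 h steady-state, dark steady-state, 0.5 h polysome and dark polysome, and the ranges of each of these neighbours overlapped. LHCB4.2 kept that order below the 4 h groups, also with overlapping neighbours. LHCB4.3 had the opposite arrangement there, with dark polysome and 0.5 h polysome above dark steady-state and 0.5 h steady-state RNA. The lower of its polysome groups did not overlap with the higher of its steady-state groups (log2 difference 0.45), while dark and 0.5 h overlapped within each kind of RNA. The polysome and steady-state groups at 4 h overlapped for all 3 genes.

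The comparison of polysome with steady-state RNA asked what share of each transcript was on ribosomes relative to other transcripts. In the dark LHCB4.2 had signals of 7691, 5707 and 5660.2 in polysome RNA, against 12980.2, 10604 and 10155 in steady-state RNA, ratios of 0.593, 0.538 and 0.557 for equal replicate numbers. The arrays did not overlap, and LHCB4.2 was lower in polysome RNA by a log2 change of -0.83 ± 0.184 (adjusted p = 0.00809). LHCB4.1 had ratios of 1.03, 0.551 and 0.490, with the first replicate far from the others and overlapping arrays. Its log2 difference of -0.61 ± 0.188 passed narrowly (adjusted p = 0.0494).

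That call of LHCB4.1 ended under most alternatives. The adjusted p was 0.0526 after quantile normalization, 0.145 with a common median, 0.118 with no filter, 0.0940 with no intensity trend and 0.0883 in a fit of the compared arrays alone. It ended also without dark steady-state replicate 2 (0.169) or 3 (0.161), or without dark polysome replicate 2 (0.154) or 3 (0.190). With the replicate block the call stood (adjusted p = 0.00818).

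LHCB4.3 lay on the other side in the dark. Its ratios of polysome to steady-state signal were 1.14, 1.304 and 1.84, and every polysome array (335 to 370.5) was above every steady-state array (202 to 295). The log2 difference of 0.48 ± 0.181 was not called (adjusted p = 0.110, and 0.0520 with the block). In the dark 4.55% of all probe sets were called lower in polysome RNA and 3.70% higher. Groups lay apart with polysome RNA the lower in 12.7% and the higher in 13.9%, and the replicate block raised the share called from 8.25% to 17.2%.

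At 0.5 h the same sides were seen. The estimates were smaller than in the dark for LHCB4.1 and LHCB4.2 and about the same for LHCB4.3. No change of the ratio from the dark was called for any of these genes. LHCB4.2 had ratios of 0.819, 0.689 and 0.658, and a log2 difference of -0.48 ± 0.184 (adjusted p = 0.117) that was called with the replicate block (adjusted p = 0.0134) and without 0.5 h polysome replicate 1 (-0.67, adjusted p = 0.0442). LHCB4.1 had ratios of 0.781, 0.777 and 0.886 (log2 difference -0.30 ± 0.188, adjusted p = 0.372). LHCB4.3 had ratios of 1.42, 1.71 and 1.07 (0.46 ± 0.181, adjusted p = 0.124, and 0.0614 with the block), and its polysome arrays all lay above its steady-state arrays, as 11.9% of probe sets did. None of the 3 was called in the fit without the block, where 8.32% of probe sets were (18.5% with it).

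At 4 h the ratios of all 3 genes were near 1. LHCB4.1 had 1.18, 1.11 and 0.929, LHCB4.2 had 1.05, 0.909 and 1.00, and LHCB4.3 had 1.05, 1.02 and 0.860. Polysome and steady-state arrays overlapped for each gene. The log2 differences were 0.09 ± 0.188, -0.02 ± 0.184 and -0.04 ± 0.181, with adjusted p from 0.828 to 0.962 and intervals from -0.42 to 0.48 over the 3 genes, where 13.4% of all probe sets were called (23.1% with the block). The sign of these small values changed with the scaling.

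**Figure D3:**
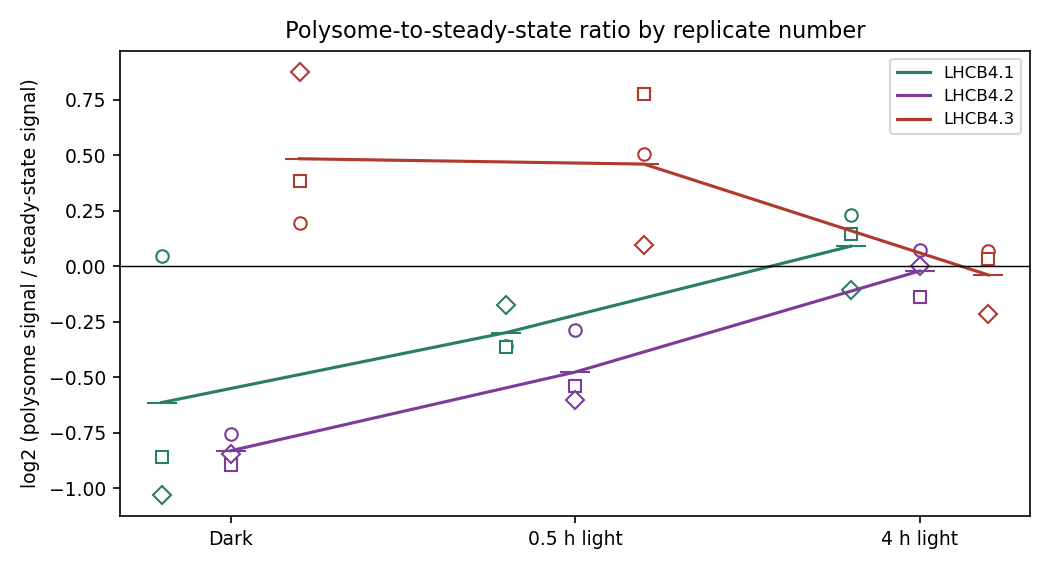
Log2 of polysome over steady-state signal (vertical axis) for arrays of equal replicate number, by light condition; circles, squares and diamonds are replicates 1, 2 and 3, and lines join the means of each gene (n = 3). The LHCB4.2 ratios lie below 0 in the dark and at 0.5 h, the LHCB4.3 ratios above 0, LHCB4.1 has 1 dark ratio above 0 and 2 below, and at 4 h all 9 ratios lie between -0.22 and 0.23.

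The change of the ratio from dark to 4 h was tested as an interaction in the same fit. LHCB4.2 had a log2 change of the ratio of 0.81 ± 0.260 (95% interval 0.27 to 1.35), which was not called over all probe sets (adjusted p = 0.268) but was with the replicate block (adjusted p = 0.0222). LHCB4.1 had 0.70 ± 0.267 (0.15 to 1.26, adjusted p = 0.428, and 0.115 with the block). LHCB4.3 had the opposite sign, at -0.52 ± 0.256 (-1.06 to 0.01, adjusted p = 0.648, and 0.339 with the block). Only 0.364% of all probe sets were called in this comparison, and 1.88% with the block. The median log2 change of the ratio over all probe sets was -0.10.

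From dark to 0.5 h the ratio changed by 0.31 ± 0.267 for LHCB4.1, 0.35 ± 0.260 for LHCB4.2 and -0.02 ± 0.256 for LHCB4.3, none called. With limma 0 of the 15922 probe sets passed in that comparison, with or without the block, and 257 had an unadjusted p under 0.05. From 0.5 h to 4 h the changes were 0.39 ± 0.267, 0.46 ± 0.260 and -0.50 ± 0.256 in the same order of genes, also not called (0.0188% of probe sets called, and 0.823% with the block).

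Whether the paralogs differed from each other was measured within arrays, as the log2 signal of one gene minus that of another, whose change between groups does not depend on the scaling of whole arrays. Differences were computed for 3 pairs of genes in 8 comparisons, 24 in all, with 95% intervals from the spread over all 18 arrays that are not adjusted for their number. The exact two-sided permutation test of 3 arrays against 3 ignores the replicate numbers and cannot go below p = 0.1, and the smallest value after Benjamini-Hochberg adjustment over the 24 was 0.3, so no difference can pass by that test.

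In steady-state RNA at 4 h against dark, LHCB4.3 rose 3.79-fold more than LHCB4.1 (interval 2.45 to 5.85) and 3.97-fold more than LHCB4.2 (2.73 to 5.77). Its log2 signal minus that of LHCB4.2 was -3.49, -3.62 and -3.40 at 4 h, against -5.46, -5.37 and -5.65 in the dark, so the arrays lay apart (exact permutation p = 0.1, n = 3 each). In polysome RNA the excess was smaller, 1.62-fold over LHCB4.1 (1.05 to 2.498) and 1.58-fold over LHCB4.2 (1.08 to 2.29), with arrays again apart. At 4 h LHCB4.1 and LHCB4.2 had signals of 15358.2 to 22914.4, and LHCB4.3 had 1371.1 to 1692.1. The highest signal of an array was between 32679.6 and 52822.1. Whether the arrays understate a rise at strong signals, and so enlarge the excess of LHCB4.3, was not tested.

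In the dark the polysome-to-steady-state ratio of LHCB4.3 was 2.14 times that of LHCB4.1 (interval 1.39 to 3.30) and 2.49 times that of LHCB4.2 (1.71 to 3.61). By replicate number 1 to 3 the log2 excess over LHCB4.1 was uneven, at 0.15, 1.24 and 1.90. Over LHCB4.2 it was 0.95, 1.28 and 1.72. At 0.5 h the ratio of LHCB4.3 was 1.69 times (1.096 to 2.61) and 1.91 times (1.32 to 2.78) theirs, though there the arrays overlapped when replicate numbers were ignored. Taken by equal replicate number, the log2 ratio of LHCB4.3 at 0.5 h exceeded that of LHCB4.1 by 0.87, 1.14 and 0.27, and that of LHCB4.2 by 0.80, 1.31 and 0.70, above 0 in all 3 pairs. At 4 h it was 0.914 times that of LHCB4.1 (0.592 to 1.41) and 0.988 times that of LHCB4.2 (0.680 to 1.43), intervals that take in 1.

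The change of the ratio at 4 h against dark differed between LHCB4.3 and its paralogs with intervals that leave out 0, by a log2 difference of -1.23 from LHCB4.1 (interval -2.11 to -0.34) and -1.33 from LHCB4.2 (-2.09 to -0.57). This comparison was added after the values had been seen. For each of the 3 replicate numbers the difference between LHCB4.3 and LHCB4.2 was smaller at 4 h than in the dark.

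LHCB4.1 and LHCB4.2 were not told apart in any of the 8 comparisons. Their log2 changes differed by -0.07 in steady-state RNA at 4 h (interval -0.47 to 0.34), by 0.04 in polysome RNA at 4 h (-0.37 to 0.44) and in the dark ratio by -0.22 (-0.62 to 0.19). These intervals reach as far as -0.62, close in size to the steady-state rise of either gene, so the values do not show that they respond alike. Leaving out dark steady-state replicate 1, where LHCB4.1 was low and LHCB4.2 high, moved the difference in the dark ratio to 0.03 and that in the steady-state rise to 0.18.

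**Figure D4:**
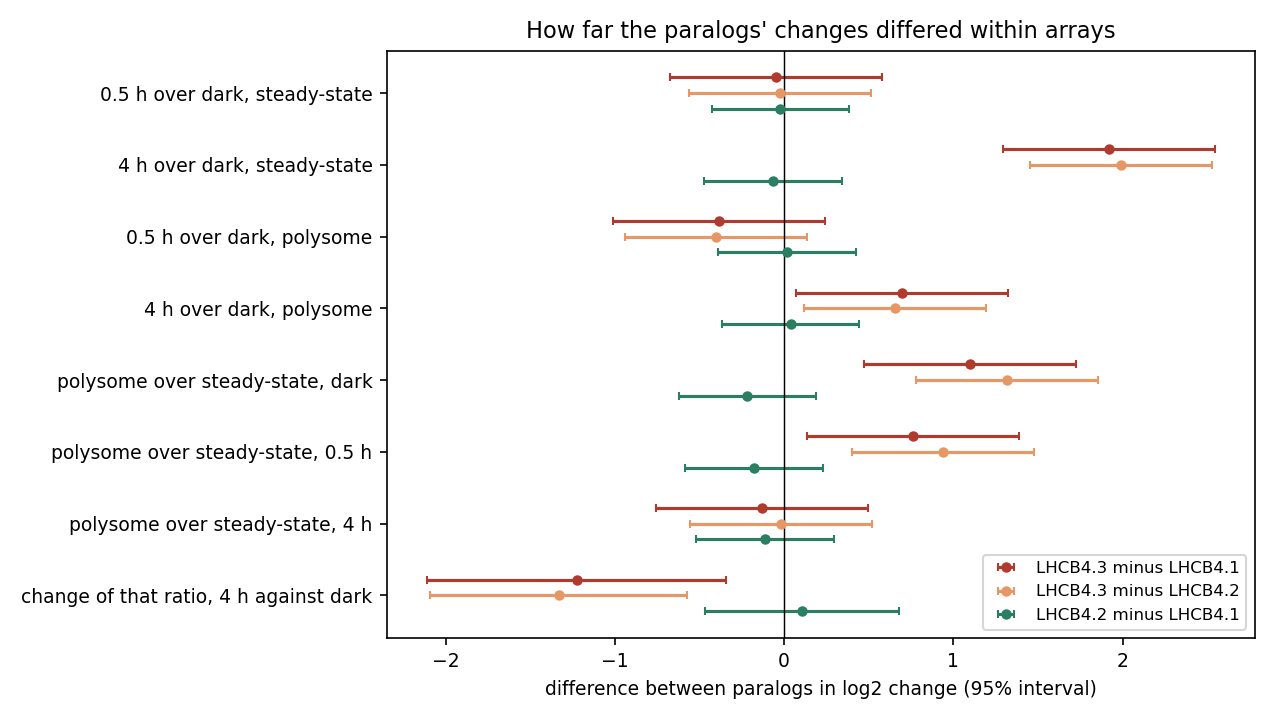
Difference between 2 paralogs in their log2 change (horizontal axis), with 95% intervals from the spread over 18 arrays, for 8 comparisons (rows) and 3 pairs (colours). Both pairs with LHCB4.3 leave out 0 in 5 comparisons, and LHCB4.2 minus LHCB4.1 takes in 0 in all 8.

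LHCB4.1 and LHCB4.2 were more like each other over the arrays than either was like LHCB4.3. Over the 18 arrays the log2 signals of LHCB4.1 and LHCB4.2 had a Pearson r of 0.932, which made LHCB4.2 the probe set most like LHCB4.1 among 8787 single-gene probe sets. LHCB4.3 correlated with LHCB4.1 at 0.750 and with LHCB4.2 at 0.696, places 850 and 1051 among the probe sets most like it. These values are descriptions, and the arrays share their light conditions and RNA kinds. After the group means were taken out, the deviations of LHCB4.1 and LHCB4.2 still had an r of 0.549, while LHCB4.3 had -0.271 with LHCB4.1 and 0.02 with LHCB4.2.

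AT2G26500 stood first for LHCB4.2 (r = 0.936), its paralog LHCB4.1 came next (r = 0.932), and CHLM, the magnesium protoporphyrin methyltransferase gene of chlorophyll synthesis, followed (r = 0.927). LHCB4.1 was most like LHCB4.2, AT4G14930 (r = 0.932) and AT2G26500 (r = 0.924), followed by the serine carboxypeptidase-like gene scpl42 and AT1G07700. The genes most like LHCB4.3 were AT3G48420 (r = 0.985), AT1G06690 (r = 0.979) and AT3G61870 (r = 0.979), followed by AT4G29590 and AT1G52220 (CURT1C, of a family that bends thylakoid membranes).

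For the other genes of the antenna pathway, few had a probe set with 1 gene in the annotation used here. Of 18 other antenna genes and 9 genes for antenna import and phosphorylation 0 had one, so these are not analysed here. Of 23 listed nuclear photosystem subunit genes 5 were measured, and all 5 rose at 4 h in both kinds of RNA, with a median log2 change of 1.89 in polysome and 1.83 in steady-state RNA, beside a median of -0.09 and -0.01 over all probe sets, of which 15.6% and 16.9% were called higher. PSBY and PSBW, small photosystem II subunits, rose in steady-state RNA by 1.87 ± 0.151 and 1.36 ± 0.154 (adjusted p = 7.56e-09 and 7.89e-07), and PSAN of photosystem I by 1.84 ± 0.213 (adjusted p = 1.03e-06). In the dark 0 of the 5 was called in the polysome-to-steady-state ratio with limma (lowest adjusted p = 0.251, and 0 with an unadjusted p under 0.05), near the 8.25% called over all probe sets. With the replicate block 1 was called higher, the photosystem I gene PSAE-1 (log2 ratio 0.62, adjusted p = 0.0443), where 8.31% of probe sets were.

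Of 22 listed chlorophyll synthesis genes 8 were measured, with 5 higher and 1 lower at 4 h in each kind of RNA. Over all probe sets 20.1% were called lower in polysome and 17.1% in steady-state RNA, beside the 15.6% and 16.9% called higher. With the block 6 were higher in steady-state RNA (20.7% of all probe sets), GSA1 having passed at 0.59 (adjusted p = 0.00405). HEME1 (uroporphyrinogen decarboxylase) and CHLI2 (a magnesium chelatase subunit) rose in steady-state RNA by 1.93 ± 0.184 and 1.86 ± 0.240, while PORB, a protochlorophyllide reductase gene, changed by -1.75 ± 0.205 (adjusted p = 8.10e-08, 4.18e-06 and 1.20e-06). At 4 h 6 of the 8 were lower in polysome than in steady-state RNA and 0 higher (median log2 ratio -0.72, against -0.06 over all probe sets), where 7.84% of probe sets were called lower, and with the block 6 of the 8 against 13.5%. In the dark 2 were lower, CHLM (-1.05 ± 0.178, adjusted p = 0.00104) and the geranylgeranyl reductase gene AT1G74470 (-0.92 ± 0.146, adjusted p = 0.000592), beside 4.55% of all probe sets. The block added CHLI2 in the dark (-0.60, adjusted p = 0.0136), 3 of the 8 against 8.89% of probe sets.

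Among 7 listed antenna-like genes 2 were measured, the paralogs LIL3:1 and LIL3:2, whose proteins hold geranylgeranyl reductase and protochlorophyllide reductase in the membrane. LIL3:1 rose at 4 h in steady-state RNA by 1.36 ± 0.158 (adjusted p = 1.06e-06), and LIL3:2 fell by 1.42 (SE 0.168, adjusted p = 1.32e-06). In the dark LIL3:2 was lower in polysome RNA, with a log2 ratio of -1.24 ± 0.168 (adjusted p = 0.000154), while LIL3:1 was at 0.34 ± 0.158 (adjusted p = 0.216). Of 10 carotenoid synthesis genes 1 was measured, the lycopene cyclase gene LYC, which rose in steady-state RNA by 0.86 ± 0.139 (adjusted p = 5.42e-05).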

How the data were processed

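Per the labels, total RNA and sucrose-gradient polysome RNA were labelled with biotin and put on arrays. The deposited table holds signal intensities on a linear scale. MAS5 is the tool that the submitters' processing notes name, without a version. Each array's 2% trimmed mean lay between 500.04 and 500.05. No array is a copy of another (at most 0.285% of signals equal, 153 pairs). Here 64 control probe sets were removed, and signals were put on the log2 scale with a floor of 1, which touched 915 values. The filter kept the 15922 probe sets from the 30th percentile of mean log2 signal upward. Genes were named through the array annotation and RefSeq's gene table.

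Comparisons used limma 3.58.1 (R 4.3.3) with 6 group means, an intensity trend and Benjamini-Hochberg adjustment. That fit and the intervals of the paralog differences did not use the labels' replicate numbers. Over 9 pairs of groups the deviations from group means had r of 0.108 to 0.426 with the same number. With different numbers no r was above 0.0359. Among the fits only the replicate block, run as an alternative, took arrays of equal number as belonging together. Ratios and comparisons given by replicate number also paired such arrays. So did the exact test of the paralogs' difference in the change of the ratio. Differences between paralogs were taken within arrays. Members and gene lists were chosen with earlier results of these data known. Named besides the members are up to 3 genes of each list by adjusted p at 4 h in steady-state RNA and the 5 most correlated single-gene probe sets of each member; AT1G74470, PSAE-1 and GSA1 were named after their values were seen. The fit was tested on simulated data with noise drawn independently for each array. That test did not include the shared deviations of arrays with equal replicate number. Alternatives were quantile normalization, a common median, no filter, a filter at the 50th percentile, 32 added to each signal, no trend, the compared arrays alone, the replicate block and each array left out.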

Additional observations from a re-analysis of the deposited data

How the results depend on the processing

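The calls at 4 h against dark in polysome RNA, those of LHCB4.3 in steady-state RNA, and that of LHCB4.2 in the dark ratio, stood under every alternative run. Of 288 results of the members under the alternatives that keep all arrays, 271 kept their direction and side of the threshold. With a common median the log2 changes of LHCB4.1 and LHCB4.2 in steady-state RNA were 0.61 and 0.54 at 4 h against dark and 0.59 and 0.55 at 4 h against 0.5 h, short of a call. The same scaling turned the sign of uncalled values, LHCB4.2 at 0.5 h in steady-state RNA (-0.0064), the 4 h ratios of LHCB4.2 (0.11) and LHCB4.3 (0.096), and the change of the LHCB4.3 ratio at 0.5 h (0.000807). Quantile normalization turned LHCB4.3 at 0.5 h in steady-state RNA (0.0090) and the 4 h ratio of LHCB4.1 (-0.029). The dark ratio of LHCB4.1 was not called at -0.58 (quantile normalization), -0.60 (common median) or -0.61 (no filter, no intensity trend, compared arrays alone); the cause was not tested. The replicate block gave LHCB4.2 calls in the 0.5 h ratio (-0.48) and in the change of the ratio at 4 h (0.81), and changed no other call of the members. It was also run for the genes of the lists after the values had been seen.

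With single arrays left out, 0.5 h changes in steady-state RNA ran from -0.12 to 0.16 for LHCB4.1, -0.086 to 0.14 for LHCB4.2 and -0.18 to 0.13 for LHCB4.3, and in polysome RNA from -0.062 to 0.011 for LHCB4.3. The 4 h against 0.5 h step of LHCB4.2 in steady-state RNA ran from 0.50 to 0.73. Ratios ran from -0.80 to -0.48 for LHCB4.1 in the dark, -0.67 to -0.28 for LHCB4.2 at 0.5 h, and at 4 h from -0.032 to 0.20 (LHCB4.1), -0.093 to 0.064 (LHCB4.2) and -0.12 to 0.014 (LHCB4.3). The change of the LHCB4.3 ratio at 0.5 h ran from -0.17 to 0.15. LHCB4.2 minus LHCB4.1 ran from -0.16 to 0.23 (0.5 h) and -0.21 to 0.18 (4 h) in steady-state RNA, -0.36 to 0.033 in the dark ratio and -0.15 to 0.25 in its change at 4 h.

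Over all probe sets, counts of calls moved with the setting. They ran from 88 (compared arrays alone) to 409 (block) at 0.5 h in steady-state RNA, where 227 were called, and from 139 to 357 (block) in polysome RNA, where 208 were. For the ratio they ran from 622 to 2738 in the dark (1313 called), from 384 to 2944 at 0.5 h (1325) and from 1257 to 3677 at 4 h (2133). For its change they ran from 12 to 300 at 4 h against dark (58) and from 0 to 211 at 4 h against 0.5 h (3).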
